A study of Mus musculus with 12 samples.

Results

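The genes of elastic fibre components were followed across the 4 groups of a mouse array experiment on aortic dissection. The members were 10 genes, chosen by the gene name that the array gives each probe: Eln, Fbn1, Mfap2, Mfap5, Mfap4, Fbln5, Efemp2, Fbln1, Fbln2 and Emilin1. They were measured by 14 of 55681 probes, all of them well above background on all 12 arrays, and all 10 were among the 22765 genes tested. RNA from the aortas of male mice was measured on 12 arrays of 1 colour each. They form 4 groups of 3, with WT and smSocs3-KO aortas taken without challenge and other aortas of each label taken after 3 days of it. The challenge was BAPN at 150 mg/kg/day, which blocks the lysyl oxidases that crosslink elastin and collagen, together with AngII at 1000 ng/kg/min from an osmotic minipump. All 4 groups carried the floxed Socs3 allele (Socs3 fl/fl) on a background that the labels give as 129S5/SvEvBrd, C57BL6 and SJL, and the WT mice were littermates without the Cre transgene. Cre was driven by the SM22 promoter, which is active in smooth muscle, so that the deletion was aimed at these cells. In which aortic cells Socs3 was deleted was not measured here. The age of each mouse is not given in the labels, nor do they say whether an array holds 1 mouse or a pool, so p-values measure the spread between these arrays.

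An elastic fibre has a core of crosslinked elastin laid down on a scaffold of fibrillin microfibrils. Fibulins and emilin lie between core and scaffold and guide the deposition and crosslinking of the core, and lysyl oxidases then crosslink it. In the aorta these fibres form the concentric lamellae of the media, and inherited defects of FBN1 (Marfan syndrome), ELN (supravalvular aortic stenosis) and EFEMP2 (cutis laxa with aortic aneurysm) show their weight in the vessel wall.

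The levels given are log2 signals relative to the 75th percentile of all probes on the same array. They can be compared for 1 probe between arrays, but not between probes. Values of single arrays are given in the order of the replicate numbers on the labels, which are 1, 2 and 3 for WT before challenge, 1, 3 and 4 for WT at day 3, 1, 3 and 4 for smSocs3-KO before challenge and 2, 3 and 5 for smSocs3-KO at day 3. A difference was called when its Benjamini-Hochberg adjusted p over all genes tested, from limma, was under 0.05.

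Socs3 itself did not set the smSocs3-KO arrays lower. Its levels were 0.30, 0.32 and 0.75 in WT before challenge against 0.24, 1.14 and 1.46 in smSocs3-KO, and 2.21, 2.30 and 0.64 in WT at day 3 against 3.31, 2.28 and 4.13 in smSocs3-KO. The label of these arrays is therefore used as a label only, and whether the probe lies in the deleted part was not tested. Slide and genotype label nearly coincided, because 1 slide carried all 6 WT arrays with replicate 1 of smSocs3-KO before challenge, and the second slide carried the remaining 5 smSocs3-KO arrays. All 8 smooth muscle, 8 fibroblast and 6 endothelial markers were well above background on all 12 arrays. The share of spots well above background lay between 55.4% and 61.2% per array, and no spot was saturated.

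Replicate 4 of WT at day 3 stood apart from the other WT arrays at day 3. The summed level of 6 cell cycle genes, on a linear scale where 1 is the 75th percentile of the array, was 4.96 on that array against 35.3 and 37.1 on the other two, and 1.01 to 1.54 in WT before challenge. The summed level of 8 macrophage markers was 50.4 on it against 121 and 83.1, and 41.9 to 43.4 before challenge. On the smSocs3-KO arrays at day 3 the cell cycle sum ran from 3.12 to 13.1, so a low sum was not particular to this array. Calls in the WT challenge response and over both labels are therefore also given without this array. That setting was planned for the members, and for the other gene lists it was chosen after seeing the data. Both marker lists were higher at day 3, so leaving out an array where they were low can enlarge the response. In the WT response 9.96% of all genes were called higher without it, against 3.58% with it. In bulk tissue, fewer cells of a type and less RNA per cell cannot be told apart.

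Elastin, the extensible core protein of the fibre, was higher at day 3 on every WT array. The level of Eln was 4.92, 5.23 and 5.49 before challenge and 6.93, 6.55 and 6.27 at day 3. The lowest WT array at day 3 lay above the highest before challenge, so that these groups did not overlap. The difference was 1.37 ± 0.36 (log2, SE, n = 3 per group), a 2.58-fold higher mean, with a limma adjusted p of 0.0553, just outside the threshold. Without replicate 4 at day 3 it was 1.52 with a limma adjusted p of 0.0322, inside the threshold, and without replicate 1 of smSocs3-KO before challenge, which leaves the difference at 1.37, the limma adjusted p was 0.0294. Of 22 alternative settings, 17 left the WT difference outside the threshold. Over all 22 it ran from 1.07 to 1.59, with a limma adjusted p of up to 0.224. In smSocs3-KO mice Eln stood at 4.12, 5.42 and 5.02 before and at 6.29, 5.24 and 5.41 at day 3, and here the groups overlapped. The difference was 0.79 ± 0.36 with a limma adjusted p of 0.213. Averaged over both genotype labels, with 6 arrays at day 3 and 6 before, Eln rose by 1.08 ± 0.26 (log2, SE), a 2.11-fold change with a limma adjusted p of 0.0163. This call was lost under 1 of 21 alternative settings, the one with replicate number as a block. The lowest of the 12 values belonged to replicate 1 of smSocs3-KO before challenge, the array of that label on the WT slide. Without that array the smSocs3-KO difference was 0.43 and the rise over both labels 0.90, each the smallest on leaving out any single array. The call over both labels held in that setting.

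**Figure D1:**
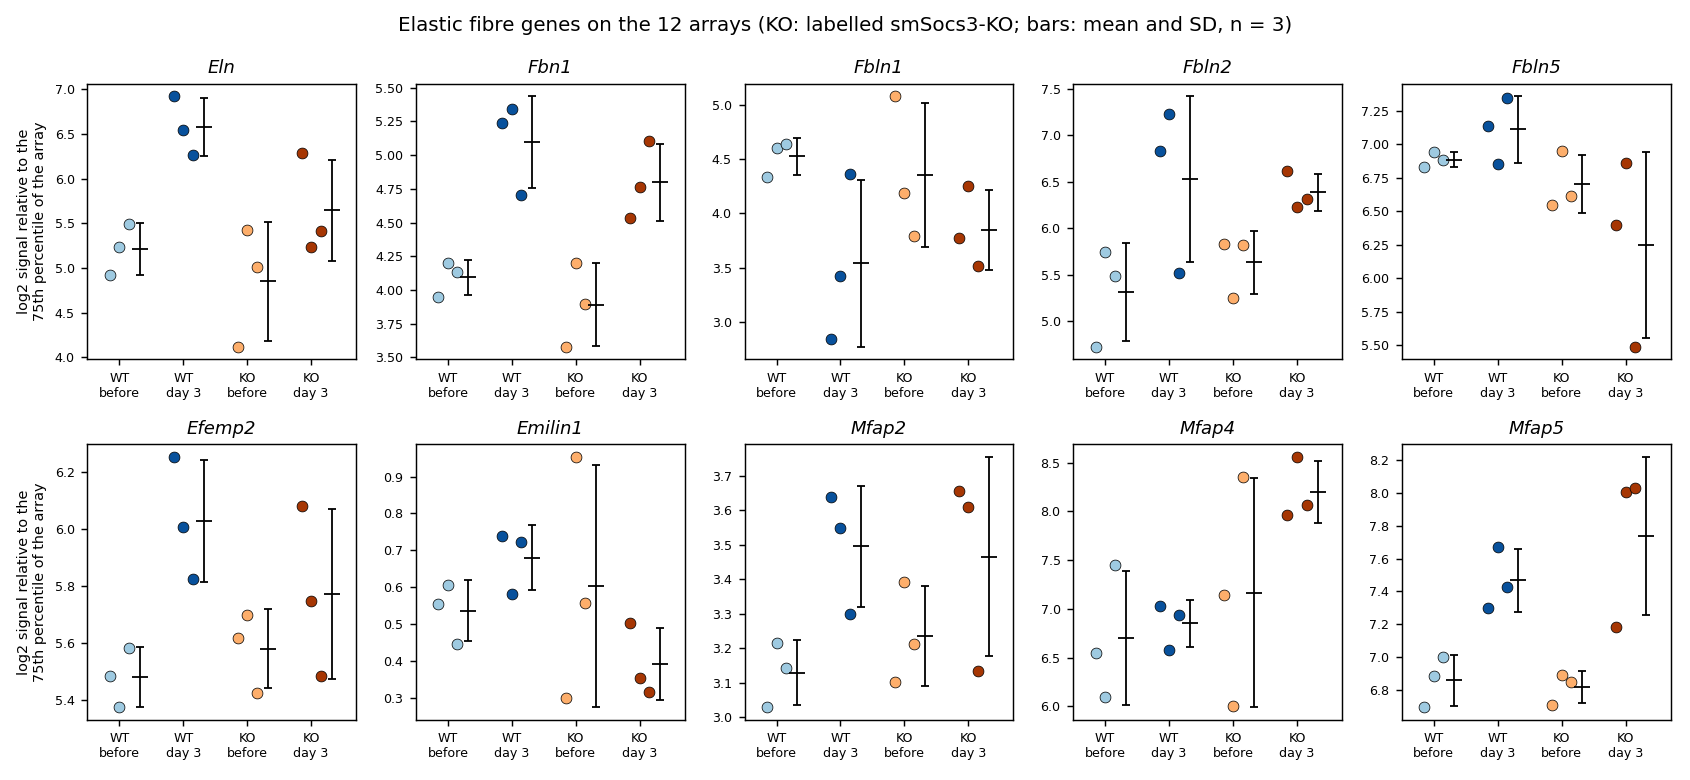
Log2 signal of the 10 elastic fibre genes on each of the 12 arrays, relative to the 75th percentile of the array, in 4 groups (WT and smSocs3-KO, marked KO, before challenge and at day 3). Each point is 1 array and the bars give the mean and SD of 3 arrays. All 6 day 3 arrays of Fbn1 and Mfap5 sit above all 6 arrays before challenge, whereas those of Emilin1 and Fbln5 mix with them.

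Fibrillin-1 makes up the microfibrils on which elastin is deposited. Fbn1 was the 1 member called in the WT challenge response. Its level was 3.95, 4.20 and 4.13 before challenge and 5.24, 5.34 and 4.70 at day 3, with no overlap. It rose by 1.0 ± 0.23 (log2, SE, n = 3 per group), or 2.0-fold, with a limma adjusted p of 0.0397. In smSocs3-KO mice its level was 3.58, 4.20 and 3.89 before and 4.53, 4.76 and 5.10 at day 3, again without overlap. That difference was 0.91 ± 0.23, with a limma adjusted p of 0.0627. Over both labels Fbn1 rose by 0.95 ± 0.16 with a limma adjusted p of 0.0068, the lowest among the 10 members. This call over both labels held under all 21 alternative settings, where the rise ranged from 0.77 to 1.05, whereas the call in WT alone was lost under 12 of 22. In WT alone the difference ran from 0.88 to 1.05 and the limma adjusted p from 0.0543 to 0.174 on leaving out any of the 3 WT arrays before challenge, replicate 1 or 3 of WT at day 3, replicate 4 of smSocs3-KO before or replicate 3 of smSocs3-KO at day 3. Without replicate 4 of WT at day 3 it was 1.19 (limma adjusted p = 0.0082), and the smSocs3-KO difference of 0.91 then had a limma adjusted p of 0.0255.

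The microfibril-associated glycoproteins MAGP-1 and MAGP-2, encoded by Mfap2 and Mfap5, bind fibrillin. Mfap5 was at 6.69, 6.88 and 7.0 before challenge in WT and at 7.30, 7.67 and 7.43 at day 3. In smSocs3-KO mice it was at 6.71, 6.89 and 6.85 before and at 7.18, 8.01 and 8.03 at day 3. Its groups did not overlap in either genotype label. The difference was 0.61 ± 0.23 in WT (limma adjusted p = 0.122) and 0.92 ± 0.23 in smSocs3-KO (limma adjusted p = 0.0592), and over both Mfap5 rose by 0.77 ± 0.16 (limma adjusted p = 0.0110). The call over both labels was lost under 1 of 21 alternative settings, the one with replicate number as a block. The smSocs3-KO difference passed the threshold without replicate 2 of that group at day 3 (1.20, limma adjusted p = 0.0232) and without replicate 4 of WT at day 3 (limma adjusted p = 0.0400). Of 23 alternative settings, 19 left this difference of Mfap5 outside the threshold, with a limma adjusted p of up to 0.549. Its relative Mfap2 was at 3.03, 3.22 and 3.14 before and 3.64, 3.55 and 3.30 at day 3 in WT, without overlap, and differed by 0.37 ± 0.18 (limma adjusted p = 0.216). In smSocs3-KO mice the Mfap2 difference was 0.23 ± 0.18 (limma adjusted p = 0.441), and over both labels it was 0.30 ± 0.13 (limma adjusted p = 0.105), or 0.38 without replicate 5 of smSocs3-KO at day 3 (limma adjusted p = 0.0488). Quantile normalization brought the Mfap2 difference down to 0.14 over both labels (limma adjusted p = 0.435) and 0.17 in WT, and that of Mfap5 in WT to 0.39, with no call changed. The second Mfap2 probe gave 0.29 ± 0.14 over both labels, close to the first.

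Mfap4, a fibrinogen-related glycoprotein that binds elastin and fibrillin, had its highest group mean on the smSocs3-KO arrays at day 3. It was at 6.55, 6.10 and 7.45 before challenge and 7.03, 6.58 and 6.94 at day 3 in WT, where the groups overlapped. In smSocs3-KO mice it spread from 7.14 through 6.00 to 8.35 before and stood at 7.97, 8.56 and 8.06 at day 3. The difference was 0.15 ± 0.51 in WT (limma adjusted p = 0.872) and 1.03 ± 0.51 in smSocs3-KO (limma adjusted p = 0.245), and it was 0.59 ± 0.36 over both (limma adjusted p = 0.247). The spread before challenge, with an SD of 1.17 in smSocs3-KO, was the widest of any member in any group.

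Fibulin-5 tethers elastin to cells and to lysyl oxidase-like enzymes, and Fbln5 was not called in either challenge response. Its level was 6.83, 6.94 and 6.88 before and 7.14, 6.85 and 7.34 at day 3 in WT, and 6.55, 6.95 and 6.61 before and 6.40, 6.86 and 5.49 at day 3 in smSocs3-KO. The differences had opposite signs, 0.23 ± 0.30 in WT (limma adjusted p = 0.650) and -0.45 ± 0.30 in smSocs3-KO (limma adjusted p = 0.365), and over both labels -0.11 ± 0.21. The lowest value came from replicate 5 of smSocs3-KO at day 3. A second, dim Fbln5 probe gave 0.12 ± 0.21 over both labels, so that the sign of this small value differed between the probes.

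Fibulin-4, the product of Efemp2, brings lysyl oxidase to tropoelastin. Efemp2 was at 5.48, 5.37 and 5.58 before and 6.25, 6.01 and 5.82 at day 3 in WT, with no overlap, and at 5.62, 5.70 and 5.43 before and 6.08, 5.75 and 5.48 at day 3 in smSocs3-KO, with overlap. The difference was 0.55 ± 0.19 in WT (limma adjusted p = 0.0984) and 0.19 ± 0.19 in smSocs3-KO (limma adjusted p = 0.541). Over both labels it was 0.37 ± 0.13 with a limma adjusted p of 0.0639. It passed the threshold without replicate 4 of WT at day 3 (0.42, limma adjusted p = 0.0414) or without replicate 5 of smSocs3-KO at day 3 (0.44, limma adjusted p = 0.0448), and also with normexp background correction (0.43, limma adjusted p = 0.0336). Quantile normalization brought it down to 0.17 (limma adjusted p = 0.323), and the WT difference to 0.23 (limma adjusted p = 0.416).

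Fibulin-2, a fibulin that binds fibrillin and tropoelastin, was the fourth member called over both labels. Fbln2 was at 4.73, 5.74 and 5.48 before and 6.83, 7.23 and 5.52 at day 3 in WT, where replicate 4 at day 3 fell within the range before challenge. In smSocs3-KO it was at 5.83, 5.25 and 5.82 before and 6.61, 6.23 and 6.32 at day 3, without overlap. The WT difference was 1.21 ± 0.41 (limma adjusted p = 0.0968) and, without replicate 4, 1.71 (limma adjusted p = 0.0072). The smSocs3-KO difference was 0.75 ± 0.41 (limma adjusted p = 0.281). Over both labels Fbln2 rose by 0.98 ± 0.29 (limma adjusted p = 0.0345), a call that was lost under 11 of 21 alternative settings. Among these were leaving out replicate 1 or 3 of WT before challenge, replicate 1 or 3 of WT at day 3, replicate 3 of smSocs3-KO before, or replicate 2 or 5 of smSocs3-KO at day 3, where the rise ran from 0.81 to 1.02 and the limma adjusted p from 0.0516 to 0.0858.

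Fibulin-1 is found in elastic fibres and basement membranes, and Fbln1 had negative differences where most other members had positive ones. In WT its brightest probe was at 4.33, 4.60 and 4.64 before and 2.84, 3.43 and 4.36 at day 3. Replicate 4 at day 3 lay within the range before challenge and the other two lay below it. In smSocs3-KO the level was 5.08, 4.19 and 3.79 before and 3.77, 4.25 and 3.52 at day 3, with overlap. The difference was -0.98 ± 0.40 in WT (limma adjusted p = 0.150), -0.51 ± 0.40 in smSocs3-KO (limma adjusted p = 0.452) and -0.74 ± 0.28 over both (limma adjusted p = 0.0791). Without replicate 4 of WT at day 3, Fbln1 passed the threshold in WT, at -1.39 (limma adjusted p = 0.0300), and over both labels, at -0.95 (limma adjusted p = 0.0181). Quantile normalization also brought Fbln1 inside the threshold over both labels, at -0.91 (limma adjusted p = 0.0468). Other settings made the difference smaller. Without replicate 1 of smSocs3-KO before challenge it was -0.14 in smSocs3-KO and -0.56 over both labels. Without replicate 1 of WT at day 3 it was -0.63 in WT.

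Emilin-1 lies at the interface of elastin and microfibrils. Emilin1 was at 0.55, 0.61 and 0.44 before and 0.74, 0.58 and 0.72 at day 3 in WT, and at 0.30, 0.95 and 0.56 before and 0.50, 0.35 and 0.32 at day 3 in smSocs3-KO. The difference was 0.15 ± 0.17 in WT (limma adjusted p = 0.619), -0.21 ± 0.17 in smSocs3-KO (limma adjusted p = 0.467) and -0.03 ± 0.12 over both (limma adjusted p = 0.855). The 95% interval over both labels ran from -0.31 to 0.24, which leaves room for a small change in either direction.

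Grouped by role, the core protein and 3 of the microfibril and fibulin genes (Fbn1, Mfap5 and Fbln2) rose over both labels, none fell, and the other 6 members (Mfap2, Mfap4, Fbln5, Efemp2, Fbln1 and Emilin1) did not pass the test. Among all genes tested, 13.6% were called higher and 9.18% lower in that comparison. The median difference of the 10 members was 0.48 (log2), against -0.05 over all genes, and 0.32 against -0.05 with quantile normalization. Without replicate 4 of WT at day 3, 5 members were called higher and 1 lower, against 15.8% and 12.5% of all genes. Fbn1 and Mfap5 were the 2 members whose 6 arrays at day 3 all lay above the 6 before, which held for 5.15% of all genes. At an unadjusted p under 0.05 there were 7 members, against 39.1% of all genes.

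In WT alone, 1 member was called higher and 0 lower by limma, against 3.58% and 1.09% of all genes, and 6 members had an unadjusted p under 0.05, against 26.6% of all genes. Eln, Fbn1, Efemp2, Mfap2 and Mfap5 had no overlap between WT arrays before and at day 3, with higher values at day 3, which held for 20.7% of all genes. The median over the members was 0.46, against -0.02 over all genes, but 0.20 against -0.04 with quantile normalization. Without replicate 4 at day 3, 3 members were called higher (Eln, Fbn1 and Fbln2) and 1 lower (Fbln1), against 9.96% and 5.97% of all genes. The other WT differences then ran from 0.11 (Mfap4, limma adjusted p = 0.931) to 0.65 (Efemp2, limma adjusted p = 0.0537). In smSocs3-KO mice limma called 0 members, against 1.71% of all genes higher and 0.734% lower. Here 2 members, Fbn1 and Mfap5, had an unadjusted p under 0.05, against 23.8% of all genes, and 3 (Fbn1, Fbln2 and Mfap5) had no overlap, against 14.1%. The median over the members was 0.49, against -0.06 over all genes.

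**Figure D2:**
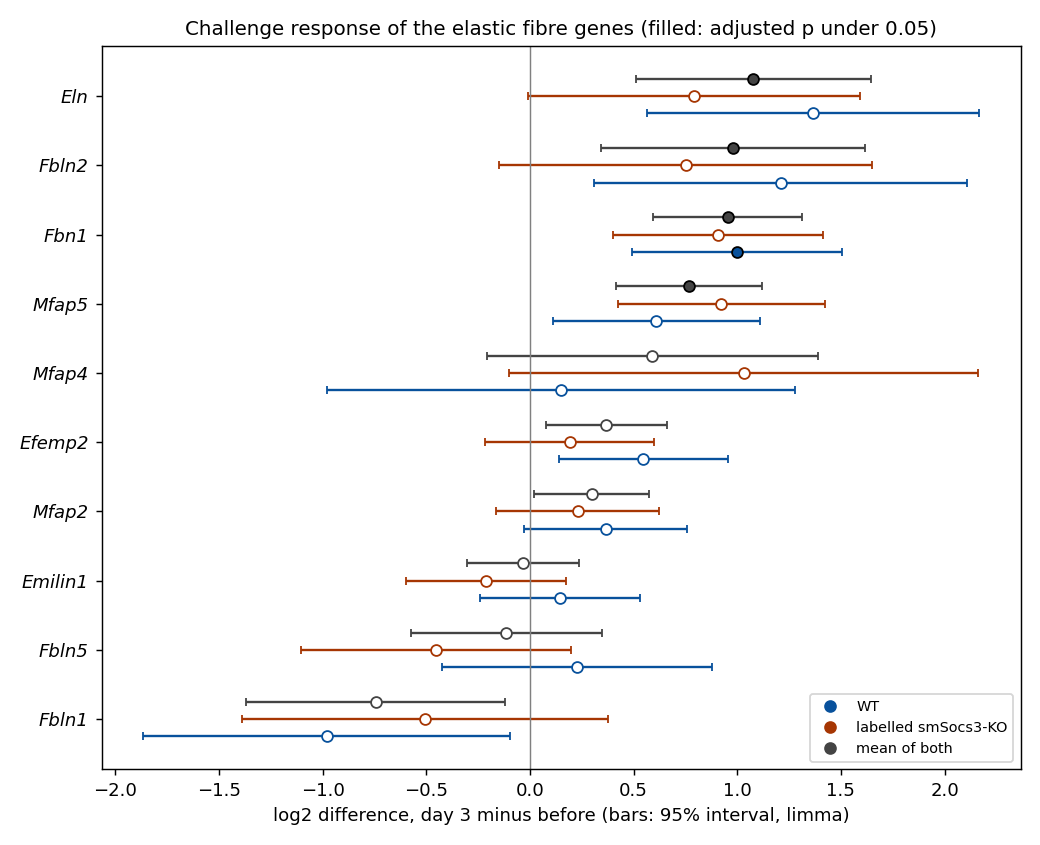
Challenge response of each elastic fibre gene, as the log2 difference of day 3 minus before challenge in WT, in mice labelled smSocs3-KO and as the mean of both, with 95% intervals from limma. Filled points passed an adjusted p of 0.05: Fbn1 in WT, and Eln, Fbn1, Fbln2 and Mfap5 in the mean of both.

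Cell type markers moved over the same days. The summed level of 8 smooth muscle markers ran from 2726 to 3010 in WT before challenge and from 2113 to 2701 at day 3, and from 2448 to 3588 and from 1733 to 2064 in smSocs3-KO. All 8 had negative differences over both labels, with 2 called lower, against 9.18% of all genes. Without replicate 4 of WT at day 3, 5 of them were called lower, against 12.5% of all genes. Of 8 macrophage markers, 7 were called higher over both labels, against 13.6% of all genes, and 8 without that array, against 15.8%. In smSocs3-KO their summed level went from between 41.4 and 66.5 to between 127 and 133. The 8 fibroblast markers had a summed level of 703 to 851 in WT before and 606 to 722 at day 3, and of 764 to 869 and 815 to 1222 in smSocs3-KO. Over both labels limma called 0 of 8, and 1 had an unadjusted p under 0.05, against 39.1% of all genes. The part of these shifts in the differences of the members was not tested.

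No difference between the genotype labels was called for any member. Before challenge, limma called 0 of 10, with 0 at an unadjusted p under 0.05, against 0.0264% and 4.4% of all genes. The widest were 0.47 ± 0.51 for Mfap4 and -0.36 ± 0.36 for Eln, with 95% intervals of -0.66 to 1.60 and -1.16 to 0.44. At day 3 limma again called 0 of 10, against 1.11% of all genes, while 3 members had an unadjusted p under 0.05, against 16.2%. Eln was lower in the arrays labelled smSocs3-KO by a difference of -0.93 ± 0.36 (limma adjusted p = 0.244), with 1 smSocs3-KO value (6.29) inside the WT range and 2 below it. Fbln5 differed by -0.86 ± 0.30 (limma adjusted p = 0.197), and its second probe gave -0.95 ± 0.30. Mfap4 differed by 1.35 ± 0.51 (limma adjusted p = 0.236), and its 3 smSocs3-KO values all lay above the 3 WT values. Mfap4 was the 1 member higher without overlap at day 3, which held for 7.87% of all genes, and Emilin1 the 1 member lower without overlap, which held for 12.7%. The Emilin1 difference was -0.29 ± 0.17 (limma adjusted p = 0.449).

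**Figure D3:**
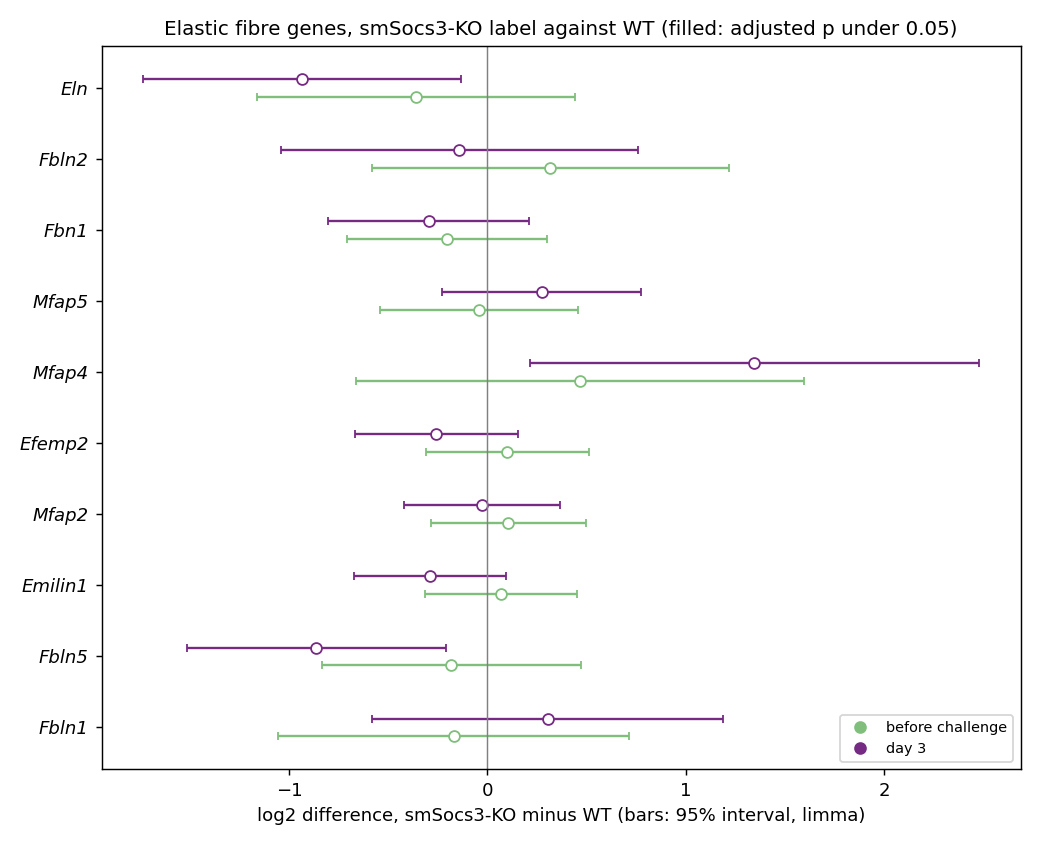
Difference between the arrays labelled smSocs3-KO and the WT arrays for each elastic fibre gene, in log2 units with 95% intervals from limma, before challenge and at day 3. No point is filled, since none passed an adjusted p of 0.05, and the day 3 intervals of Eln, Fbln5 and Mfap4 exclude 0.

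Slide and tissue markers moved with the genotype label. With slide as a block, which rests on the 1 smSocs3-KO array of the WT slide, the day 3 difference was -2.03 for Eln (limma adjusted p = 0.225), -1.09 for Fbln5 (limma adjusted p = 0.349) and 1.31 for Mfap4 (limma adjusted p = 0.503). The summed level of 7 mesothelial markers was 3.25 to 23.9 over the 6 WT arrays and 40.3 to 83.9 over the 6 smSocs3-KO arrays, and that array of the WT slide, at 65.6, lay among the latter. Fibroblast markers were at 606 to 722 in WT and 815 to 1222 in smSocs3-KO at day 3, with 2 of 8 called higher, against 1.11% of all genes called in either direction. Their part in the differences of Eln, Fbln5 and Mfap4 was not tested.

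Whether the challenge response differed between the labels was tested by the interaction. Limma called 0 of 10 members, as it called 0% of all genes, and 0 members against 5.34% of all genes had an unadjusted p under 0.05. The interaction was -0.57 ± 0.51 for Eln, with a 95% interval from -1.71 to 0.56, and 0.88 ± 0.72 for Mfap4, with an interval from -0.72 to 2.48. Intervals this wide do not show equal responses. No member passed the threshold that the study used (an unadjusted p under 0.01 with a fold above 4 or under 0.25) in any of these comparisons. It was passed by 1.28% of all genes in the WT response, 1.63% in the smSocs3-KO response, 0.242% between labels before challenge, 1.11% between labels at day 3, and 0.307% in the interaction.

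The 3 probes named Fbln1 lie at distant positions, and they are shown because their values differed. On mm9 the brightest lies at chr15:85115998-85116057, a second at chr15:85115550-85115609, and the third, named the upstream probe here, 34011 bases before the brightest at chr15:85081927-85081986, all on the plus strand. Fibulin-1 transcripts are known to differ at their downstream end, but the files do not tie a probe to a transcript. Their sequences read, 5′ to 3′ (the first 30 bases of the brightest, the others whole, with capitals on a stop triplet at the end of the second, in a frame with no earlier stop):
brightest: ttttttaaccaacggggctctttgtgtttc
second: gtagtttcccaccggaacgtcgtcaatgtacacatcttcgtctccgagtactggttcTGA
upstream: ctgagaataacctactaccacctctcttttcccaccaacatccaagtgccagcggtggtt
The second probe gave differences of -0.72 ± 0.43 in WT and -0.37 ± 0.43 in smSocs3-KO, of the same sign as the brightest. The upstream probe gave -0.59 ± 0.27 in WT and -0.02 ± 0.27 in smSocs3-KO. At day 3 its genotype difference was 0.75 ± 0.27 (limma adjusted p = 0.229), against 0.30 ± 0.40 for the brightest probe. None of the 3 probes was called in any comparison.

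**Figure D4:**
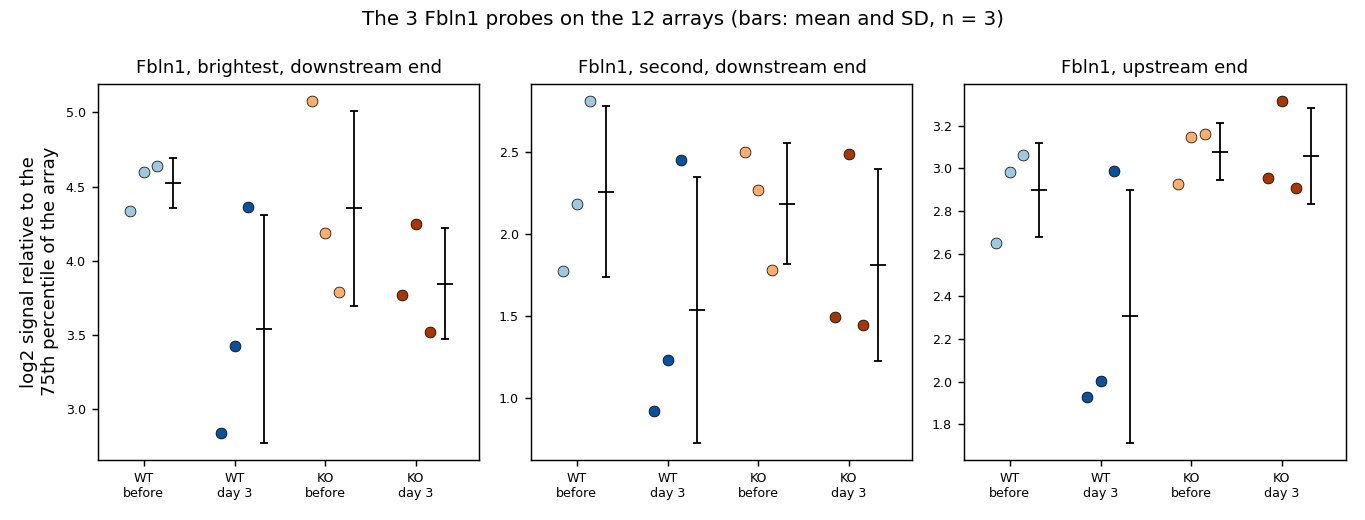
Log2 signal of the 3 Fbln1 probes on the 12 arrays, relative to the 75th percentile of the array. Points are arrays and bars the mean and SD of 3 arrays. Both downstream probes and the upstream probe have 2 low arrays in WT at day 3, and the upstream probe stays at its level before challenge on the smSocs3-KO arrays at day 3.

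Each of the 4 genes called over both labels was measured by 1 probe, and the first 30 bases are given for Eln, Fbn1 and Fbln2 to say which stretch of transcript the values stand for. These probes lie on mm9 at chr5:135179129-135179188 on the minus strand (Eln), chr2:125126727-125126786 on the minus strand (Fbn1) and chr6:91222118-91222177 on the plus strand (Fbln2):
Eln: ataccggaagccttgacgatggatttggtg
Fbn1: tcacttatgagtatggtgcagtacatgtaa
Fbln2: ctcaactatggctacagctgacattccatt
The exon or untranslated region that holds each probe was not analysed here, so these values speak for 1 stretch of each transcript. Of the members not called over both labels, other than Fbln1, the brightest probe lay at chr4:140571828-140571887 (Mfap2), chr11:61302147-61302206 (Mfap4), chr19:5481762-5481821 (Efemp2), chr12:102988153-102988212 on the minus strand (Fbln5) and chr5:31222545-31223001 (Emilin1). The 60 bases of the Emilin1 probe span 457 bases of genome, which leaves out 397 bases between its parts.

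Promoters are shown for Fbn1 and Fbln2, the called members that the RefSeq promoter table holds. The table holds 12 windows for 7 of the 10 members, of which the other 5 were not called over both labels, and the 250 bases before the transcription start were searched. The GC box GGGCGG, the motif that Sp1 family factors bind, was present on either strand in 8 of the 12 windows, from 6 genes, against 32.7% of all 32851 promoters. The TATA box TATAAA was present in 0 of 12, against 12.4%. The share of G and C ran from 46.4% to 78.8%. The promoters of Fbn1 (GRCm38.p6, chr2:125506439-125506688, minus strand) and Fbln2 (GRCm38.p6, chr6:91212514-91212763, plus strand) each hold 1 GC box, beginning 185 and 16 bases before the start. They read 5′ to 3′ as follows, with the GC box or its reverse complement in capitals:
Fbn1: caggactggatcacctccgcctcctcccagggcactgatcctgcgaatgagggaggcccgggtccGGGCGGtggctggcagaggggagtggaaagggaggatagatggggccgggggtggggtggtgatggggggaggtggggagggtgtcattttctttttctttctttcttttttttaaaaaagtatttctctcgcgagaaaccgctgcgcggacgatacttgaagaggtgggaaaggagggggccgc
Fbln2: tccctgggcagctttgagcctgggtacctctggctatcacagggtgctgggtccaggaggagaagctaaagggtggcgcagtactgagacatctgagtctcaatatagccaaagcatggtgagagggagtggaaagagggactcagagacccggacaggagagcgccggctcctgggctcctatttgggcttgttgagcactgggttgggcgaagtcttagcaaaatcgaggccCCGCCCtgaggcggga
A match of these letters is a description and not a binding site, and some windows of 1 gene overlap.

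The genes whose levels followed Eln most closely over the 12 arrays were Lamc1, a laminin chain of basement membranes (Pearson r = 0.981), Mtmr11 (r = 0.970), B3gnt2 (r = 0.962), Tmem183a (r = 0.962) and Txndc5, a disulphide isomerase of the endoplasmic reticulum (r = 0.959), out of 14106 candidates. The arrays share the challenge, 2 slides and 2 genotype labels. Without the 2 arrays farthest from the median of Eln, r lay between 0.923 and 0.960, and with the group means subtracted between 0.887 and 0.934. Among the members themselves, the 45 pairs had a median r of 0.27 (range -0.77 to 0.84), and 0.02 once group means were subtracted. Fbn1 and Mfap5 had r = 0.824, Eln and Fbn1 0.810 and Efemp2 and Mfap2 0.839, whereas Fbln1 ran opposite to Fbn1 (r = -0.773) and Eln (r = -0.741). With group means subtracted, r for these pairs was 0.584, 0.362, 0.743, -0.639 and -0.591, in the same order. These correlations describe 12 arrays that share their groups and carry no test.

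Of 22 further genes of the elastic fibre pathway, 20 were tested, and over both labels 4 were called higher and 2 lower, against 13.6% and 9.18% of all genes, with a median difference of 0.26 against -0.05. Without replicate 4 of WT at day 3 these counts were 6 and 3, against 15.8% and 12.5% of all genes. The genes added in that setting were Fbn2 (0.99, limma adjusted p = 0.0345) and Emilin2 (0.74, limma adjusted p = 0.0156), called higher. Fbln7 was added as lower (-0.80, limma adjusted p = 0.0353). With all 12 arrays, the called genes included lysyl oxidases, the enzyme family that BAPN inhibits. Lox rose by 1.47 ± 0.24 (log2, SE, limma adjusted p = 0.0059). Its relatives Loxl2 and Loxl4 rose by 1.28 ± 0.16 (limma adjusted p = 0.0039) and 1.70 ± 0.32 (limma adjusted p = 0.0082). Loxl1 and Loxl3 were tested and not called. Without replicate 4 of WT at day 3 they differed by 0.30 (limma adjusted p = 0.0824) and 0.17 (limma adjusted p = 0.409). The latent TGFβ binding proteins went opposite ways. Ltbp2 rose by 0.93 ± 0.17 (limma adjusted p = 0.0082), while Ltbp4, which binds fibulin-5 and takes part in elastic fibre assembly, fell by 0.86 ± 0.18 on the log2 scale (limma adjusted p = 0.0111). Adamts10, a fibrillin-binding metalloprotease, fell by 0.51 ± 0.14 on that scale (limma adjusted p = 0.0309).

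In WT alone, Lox (1.49 ± 0.33, limma adjusted p = 0.0388), Loxl2 (1.36 ± 0.23, limma adjusted p = 0.0310) and Ltbp2 (1.06 ± 0.25, limma adjusted p = 0.0400) were called higher and Ltbp4 lower (-1.05 ± 0.25, limma adjusted p = 0.0453), which is 3 and 1 of 20 against 3.58% and 1.09% of all genes. Without replicate 4 at day 3 the counts were 4 and 2, against 9.96% and 5.97%. Loxl4 was then called higher at 2.01 (limma adjusted p = 0.0171) and Adamtsl4 lower at -0.77 (limma adjusted p = 0.0466). In smSocs3-KO 1 of the 20, Loxl2, was called higher (1.21 ± 0.23, limma adjusted p = 0.0324), against 1.71% of all genes. Limma called 0 of the 20 between genotype labels before challenge, where 0 had an unadjusted p under 0.05 against 4.4% of all genes, and 0 at day 3, where 6 did against 16.2%. At day 3 the largest differences were 2.38 ± 0.61 for Mmrn1, which encodes multimerin-1, an EMILIN family protein (limma adjusted p = 0.0953), -0.92 ± 0.21 for Ltbp1 (limma adjusted p = 0.0637) and 0.83 ± 0.27 for Efemp1, which encodes fibulin-3 (limma adjusted p = 0.181).

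Enzymes that can degrade elastin were measured by 7 of 10 listed genes, since Mmp7, Mmp12 and Prtn3 had no probe that passed the filter on dim signals. Over both labels 4 were called higher and 1 lower, against 13.6% and 9.18% of all genes, with a median difference of 0.80 against -0.05, and the counts were the same without replicate 4 of WT at day 3. Ctss, which encodes cathepsin S, rose by 2.0 ± 0.32 (limma adjusted p = 0.0060), Cela1 by 1.06 ± 0.25 (limma adjusted p = 0.0148), Ctsk by 0.96 ± 0.19 (limma adjusted p = 0.0099) and Ctsl by 0.80 ± 0.19 (limma adjusted p = 0.0151). The gene called lower was Mmp9 (limma adjusted p = 0.0161). Its probe was well above background on only 1 of 3 WT arrays at day 3, so no size is given. The part of the macrophage markers, which were higher at day 3, in the differences of these proteases was not tested. In smSocs3-KO alone Ctss was the 1 elastase called (2.27 ± 0.46, limma adjusted p = 0.0379), against 1.71% of all genes higher, and in WT alone limma called 0 of the 7, with 5 at an unadjusted p under 0.05 against 26.6% of all genes. Without replicate 4 of WT at day 3, limma called 2 higher in WT, Ctss (2.30, limma adjusted p = 0.0029) and Ctsk (1.29, limma adjusted p = 0.0133), and 1 lower, Mmp9. Of 9 elastin receptor genes, 1 was called higher over both labels, against 13.6% of all genes. It was Neu1, the neuraminidase of the elastin receptor complex, with a rise of 0.42 ± 0.12 (limma adjusted p = 0.0344). The median difference of the 9 was 0.03 against -0.05 over all genes. At an unadjusted p under 0.05 there was 1 of the 9, against 39.1% of all genes. Between genotype labels limma called 0 elastases and 0 receptors, with 0 and 0 at an unadjusted p under 0.05 before challenge, against 4.4% of all genes, and 3 and 3 at day 3, against 16.2%. At day 3 the difference was 1.24 ± 0.46 for Ctss (limma adjusted p = 0.226) and -0.87 ± 0.20 for the integrin chain gene Itgav (limma adjusted p = 0.0693).

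**Figure D5:**
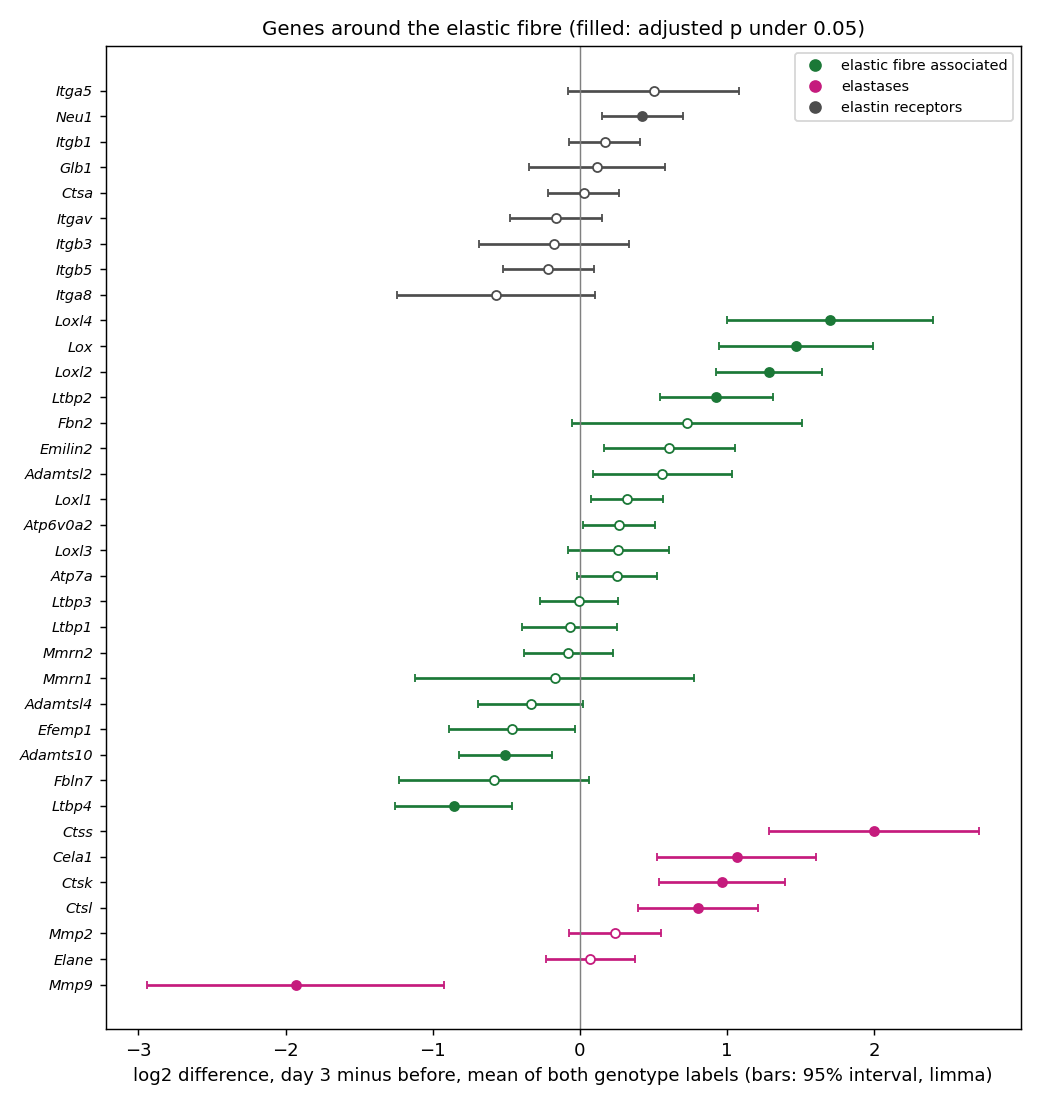
Challenge response over both genotype labels, as the log2 difference of day 3 minus before with 95% intervals from limma, for tested genes of the elastic fibre pathway other than the 10 members, for elastases and for elastin receptors. Filled points passed an adjusted p of 0.05: Lox, Loxl2, Loxl4, Ltbp2, Ctss, Cela1, Ctsk, Ctsl and Neu1 lie to the right of 0, and Ltbp4, Adamts10 and Mmp9 to the left. The Mmp9 point rests on a probe that was well above background on 1 of 3 WT arrays at day 3.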

How the data were processed

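The members and gene lists were chosen with earlier results of these data known. Groups, replicate numbers, doses and time points came from the labels and the study's methods. The deposited file of each array is its scanner output, whose processed signal is a background-subtracted intensity per spot on a linear scale. Feature Extraction 9.5.1.1 is named in the submitters' processing notes and 10.7.1.1 in the file header. The authors also deposited a table of quantile-normalized intensity values, used as an alternative.

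Control and outlier spots were dropped, the processed signal was put on a log2 scale, and the 75th percentile of each array was subtracted. Probes well above background (by 13 background SDs) on every array of 1 or more groups numbered 32287 of 55681, and the brightest of them represented its gene. limma 3.58.1 in R 4.3.3 was fitted to 4 group means over 22765 genes, with moderated variances and Benjamini-Hochberg adjustment, and was tested on simulated data. With 3 arrays against 3, an exact permutation test cannot go below 0.1, so none was used for single genes. Named were the 10 members in every comparison and the 5 genes closest to Eln among those with a RefSeq symbol. Of other lists the called genes were named or, where none was called, up to 3 with the largest difference. Loxl1 and Loxl3 were named beside the called relatives of Lox. Probe positions were taken from the scanner files (mm9), and promoters come from RefSeq (GRCm38.p6). Lists of cell type markers covered smooth muscle, fibroblasts, macrophages, endothelium and mesothelium, with a list of cycling cells. Further lists covered neutrophils, adipocytes, lymphocytes, red blood cells, striated muscle and adrenal cortex. Alternatives covered the background correction, normalization, filter, probe choice, variance moderation, the arrays fitted, blocks for slide or replicate number, and leaving out each array. The probe sequence of Mfap5 is not reported here.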

Additional observations from a re-analysis of the deposited data

How the results depend on the processing

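Over 1310 values of single members under alternative settings, 1228 kept their direction and their side of the threshold, 25 lost a call, 22 gained one and 35 changed sign. No value that changed sign belonged to a called result, and 45 of 60 member results never changed sign. The cause of these changes was not tested, except that fewer arrays or genes enter some fits. The members called higher in WT (1 as reported) numbered 0 with quantile normalization, the authors' value table, no filter, only the arrays compared or the replicate block, and 2 with the filter on all 12 arrays, trended and robust moderation or slide as a block. Leaving out single arrays gave 0 to 3 higher and 0 to 1 lower in WT, 0 to 2 higher in smSocs3-KO and 0 to 1 lower over both labels. Normexp correction and trended moderation each gave 2 higher in smSocs3-KO. Over both labels, quantile normalization and the value table each gave 1 lower (Fbln1). Counts over all genes moved as well. Genes called higher in WT numbered 816 as reported, 437 with quantile normalization or the value table, and 2268 without replicate 4 at day 3. In smSocs3-KO they numbered 390 as reported and 600 with normexp correction. Genes called lower over both labels numbered 2090 as reported, 2266 with quantile normalization and 2250 with the value table. For the other settings, counts over all genes are not given here.

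No label says that a replicate number marks a shared animal or litter. Of 11 same-number pairs of arrays, 4 had r over 0.1 (range -0.40 to 0.46, median 0.072). The median r of pairs with other numbers was -0.0055. So few pairs cannot settle whether the arrays are paired. With the replicate block, 1 member (Fbn1) was called higher over both labels, against 4, since Eln (1.04, limma adjusted p = 0.0829), Mfap5 (0.67, limma adjusted p = 0.0554) and Fbln2 (0.92, limma adjusted p = 0.117) were not called, and 1 (Mfap4) passed the study's threshold at day 3 between labels. The block turned Mfap4 to -0.44 in WT and to -0.13 between labels before challenge, and Fbln5 to 0.073 over both labels. With slide as a block, Eln passed the study's threshold as lower at day 3 (1 member).

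Quantile normalization and the value table turned the WT response of Mfap4 (-0.094 and -0.092), the difference before challenge of Efemp2 (-0.011 with either), the day 3 difference of Fbln2 (0.017 and 0.021) and the interaction of Fbn1 (0.045 with either). Slide as a block turned the differences before challenge of Fbln1 (0.55), Emilin1 (-0.24) and Mfap2 (-0.026) and the day 3 difference of Fbln2 (0.16). The mean of all probes turned Mfap2 at day 3 (0.024) and Fbln5 over both labels (0.0034). Leaving out single arrays let the sign of some small differences vary. In WT this held for Mfap4 (-0.15 to 0.53). Before challenge it held for the differences between labels of Eln (-0.64 to 0.0057), Fbln1 (-0.53 to 0.11), Emilin1 (-0.11 to 0.22), Mfap4 (-0.13 to 1.05) and Mfap5 (-0.12 to 0.029). At day 3 it held for Fbln1 (-0.047 to 0.71), Fbln2 (-0.65 to 0.21) and Mfap2 (-0.13 to 0.14), in the interaction for Fbn1 (-0.29 to 0.062) and Mfap2 (-0.23 to 0.031), and over both labels for Fbln5 (-0.27 to 0.076) and Emilin1 (-0.11 to 0.054). With 3 arrays per group, differences of this size could not be told from 0.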
